A study of Mus musculus with 6 samples.

Results

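Dusp4, Dusp6, Spry2, Spry4, Spred1, Etv4, Etv5, Ccnd1, Myc and Egr1 are 10 genes whose transcripts serve as a readout of Ras/Raf signaling, and they were taken by gene symbol from a table of 34745 genes in mouse liver tumors. All 10 had enough counts to be tested, among 13892 genes tested in all. RNA-seq, with 1 library for each tumor, covered 3 tumors of Prmt3f/f mice (tumors 7, 66 and 71, labelled WT), which carry floxed Prmt3 alleles, and 3 tumors of Prmt3LKO mice (tumors 92, 93 and 94, labelled Prmt3-KO), which additionally carry the Alb-Cre transgene. The albumin promoter drives Cre in cells of the hepatocyte lineage, and Prmt3 was not measured by cell type. Mice of both genotypes received diethylnitrosamine (DEN, 25 mg/kg, a liver carcinogen) at 2 weeks of age and 10% CCl4 (0.5 ml/kg, a hepatotoxin) from 6 weeks of age, and were killed at 26 weeks. The sources used here do not say whether the tumors of a genotype came from separate mice, so the p-values measure the spread between these tumors only.

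In the Ras-Raf-MEK-ERK pathway, a growth factor receptor activates Ras, Ras recruits Raf kinases, and Raf activates MEK, which activates the kinase ERK (a MAP kinase, MAPK). ERK then raises the transcription of growth genes such as Ccnd1, Myc and Egr1, and also of its own inhibitors, the DUSP phosphatases and the Sprouty and SPRED proteins, which form a negative feedback. Tumors induced by DEN in mice often carry activating mutations of Hras or Braf, but no mutation, protein or ERK phosphorylation was measured in these data.

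The promoters of feedback genes are shown because ERK acts on such genes largely through transcription factors of the ETS family, 2 of which (Etv4 and Etv5) are among the 10 genes. RefSeq starts and sequences (build GRCm38.p6) were used for 4 of the 10 genes, Dusp6, Spred1, Spry2 and Etv5. No motif result is given for the other genes of the 10, Spry4 and Egr1 among them. The 250 bases before the start, read 5′ to 3′ on the strand of the gene, are printed for Dusp6 (chr10:99262981-99263230, plus strand), Spred1 (chr2:117120821-117121070, plus strand) and Spry2 (chr14:105896820-105897069, minus strand), and capitals mark each match to the ETS motif CGGAAG on either strand.
Dusp6: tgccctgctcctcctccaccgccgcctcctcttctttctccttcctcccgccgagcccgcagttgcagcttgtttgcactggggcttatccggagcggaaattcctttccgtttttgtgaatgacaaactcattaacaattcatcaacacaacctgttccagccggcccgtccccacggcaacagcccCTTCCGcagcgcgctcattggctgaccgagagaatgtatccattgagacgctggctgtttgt
Spred1: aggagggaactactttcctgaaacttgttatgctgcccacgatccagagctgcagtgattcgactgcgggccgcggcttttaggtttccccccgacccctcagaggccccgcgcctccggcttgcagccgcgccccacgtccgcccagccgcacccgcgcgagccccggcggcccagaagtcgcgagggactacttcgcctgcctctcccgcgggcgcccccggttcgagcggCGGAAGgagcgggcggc
Spry2: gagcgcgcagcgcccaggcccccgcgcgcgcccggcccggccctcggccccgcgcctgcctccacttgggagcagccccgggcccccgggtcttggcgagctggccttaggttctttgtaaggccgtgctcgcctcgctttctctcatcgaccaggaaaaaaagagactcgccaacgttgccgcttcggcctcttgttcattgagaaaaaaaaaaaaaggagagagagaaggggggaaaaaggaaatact
The match in Dusp6 is on the opposite strand and began 62 bases before the start, and the match in Spred1 began 17 bases before it. Neither Spry2 nor the windows before both RefSeq starts of Etv5, which overlap the Etv5 gene of the table and are not printed, held a match. Among 32851 promoter windows of the same length, 13.6% held CGGAAG. The motifs TGANTCA (AP-1), TGACGTCA (CRE), CACGTG (E-box), the CArG box and TATAAA had no match in the windows of these 4 genes, against 6.75%, 1.55%, 6.02%, 1.47% and 12.4% of all windows. GGGCGG (SP1) matched at 110 and 7 bases before the Spred1 start and at 3 places before an Etv5 start, and 32.7% of all windows held it. No matches overlapped each other. A match describes letters and does not show binding, and the absence of a match says only that these letters are not in the window.

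Before the members were compared, the deleted gene was examined. Prmt3, which encodes a protein arginine methyltransferase, was at 6.60, 8.49 and 10.2 CPM (the count of a gene scaled to a common library size by the TMM method) in Prmt3f/f tumors 7, 66 and 71, and at 2.80, 2.03 and 3.82 CPM in Prmt3LKO tumors 92, 93 and 94. The groups did not overlap, and the log2 fold change was -1.55 ± 0.29 (SE), although its adjusted p over all genes was 0.592 (edgeR). Between 18440244 and 27976598 counts were assigned per tumor, so that 3 counts correspond to 0.107 to 0.163 CPM. Tumor 7 stood somewhat apart, being the highest for 23.7% and the lowest for 23.6% of all genes tested. Hepatocyte markers were present in every tumor, with Alb (albumin) between 108202 and 164722 CPM.

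No member was called at an adjusted p under 0.05 by the quasi-likelihood test of edgeR, and 0.0% of all genes tested were. At an unadjusted p under 0.05 there were 0 of 10 members, where 6.56% of all genes passed (4.37% lower and 2.2% higher in Prmt3LKO tumors). DESeq2, limma-voom and the exact test of edgeR also gave 0 members past an adjusted p of 0.05. Expression of 5 members was lower and of 5 was higher in Prmt3LKO tumors, and their log2 fold changes had a median of -0.04, against 0.00037 for all genes tested. When single tumors were omitted, this median ranged from -0.28 (without tumor 93) to 0.03 (without tumor 71). The groups overlapped for all 10 members, where 12.2% of all genes had groups that did not overlap (6.6% lower and 5.56% higher in Prmt3LKO tumors). A two-sided exact permutation test of each member gave p between 0.3 and 1, and with 3 tumors against 3 its smallest possible p is 0.1. For 5 members (Dusp4, Dusp6, Spry4, Spred1 and Ccnd1) the 95% interval of the fold change excluded a 2-fold difference in either direction, and for Spry2, Etv4, Etv5, Myc and Egr1 it did not.

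**Figure D1:**
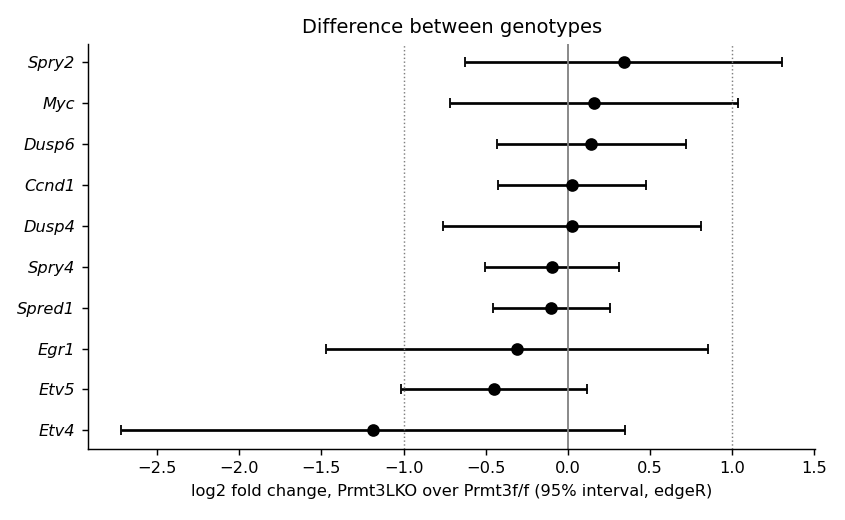
Log2 fold change of each gene, Prmt3LKO over Prmt3f/f tumors (points), with the 95% interval from edgeR (bars) and dotted lines at 2-fold differences. All 10 intervals cross 0, and that of Etv4 is the widest, from -2.72 to 0.35.

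Dusp6 encodes a cytoplasmic phosphatase that inactivates ERK. Its level was 204, 176 and 203 CPM in Prmt3f/f tumors 7, 66 and 71, and 208, 288 and 148 CPM in Prmt3LKO tumors 92, 93 and 94. The highest and the lowest tumor were both Prmt3LKO, and the 3 Prmt3f/f tumors lay between them. The means were 194 ± 16.0 and 214 ± 70.4 CPM (SD, n = 3), with a log2 fold change of 0.14 ± 0.25 (SE; 95% interval -0.43 to 0.72; adjusted p = 0.968, edgeR). Dusp4, a nuclear phosphatase of the same family, was at 28.9, 16.5 and 24.1 CPM in Prmt3f/f tumors and at 20.4, 35.3 and 14.9 CPM in Prmt3LKO tumors. Again tumor 93 was the highest and tumor 94 the lowest, and the means of the groups, 23.1 ± 6.22 and 23.5 ± 10.6 CPM, were nearly equal (log2 fold change 0.03 ± 0.34, adjusted p = 0.997, edgeR). Without tumor 93 the log2 fold change would be -0.13 for Dusp6 and -0.39 for Dusp4. The direction of Dusp4 also turned without tumor 66 (-0.17).

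Sprouty and SPRED proteins inhibit the pathway at the level of Ras and Raf. Spry2 was at 1.98, 4.39 and 3.20 CPM in Prmt3f/f tumors and at 4.34, 5.55 and 2.21 CPM in Prmt3LKO tumors. The lowest tumor of each group was near 2 CPM and the highest above 4 CPM, and the log2 fold change was 0.34 ± 0.42 (SE; 95% interval -0.63 to 1.31; adjusted p = 0.955, edgeR). Spry4 was at 14.7, 19.4 and 19.3 CPM against 18.9, 16.3 and 14.8 CPM, a log2 fold change of -0.10 ± 0.18 (adjusted p = 0.971, edgeR). Spred1 was at 38.8, 33.7 and 36.9 CPM against 32.8, 39.6 and 29.6 CPM, a log2 fold change of -0.10 ± 0.15 (adjusted p = 0.968, edgeR). Spry4 and Spred1 were the steadiest of the 10 genes: the highest tumor exceeded the lowest 1.32-fold for Spry4 and 1.34-fold for Spred1.

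Etv4 and Etv5 encode ETS transcription factors of the PEA3 group. They had the largest negative differences among the 10 genes, but neither passed the test. Etv4 was at 5.35, 5.88 and 0.91 CPM in Prmt3f/f tumors 7, 66 and 71 (116, 126 and 26 counts) and at 1.94, 2.35 and 1.01 CPM in Prmt3LKO tumors 92, 93 and 94 (34, 52 and 20 counts). Tumors 7 and 66 were above all other tumors, while tumor 71, of the same genotype, was the lowest of the 6. The log2 fold change was -1.19 ± 0.66 (SE; 95% interval -2.72 to 0.35; unadjusted p = 0.112, adjusted p = 0.821, edgeR). Etv5 was at 14.8, 12.5 and 9.28 CPM against 10.6, 9.38 and 6.73 CPM, a log2 fold change of -0.45 ± 0.24 (95% interval -1.02 to 0.12; adjusted p = 0.812, edgeR). Here too tumors 7 and 66 were the highest and tumor 71 fell within the Prmt3LKO range.

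Leaving out single tumors moved the differences of Etv4 and Etv5 both ways. Without tumor 71, both had an unadjusted p under 0.05 and were lower in Prmt3LKO tumors, Etv4 by a log2 fold change of -1.66 (unadjusted p = 0.0038, adjusted p = 0.488, edgeR) and Etv5 by -0.61 (unadjusted p = 0.039, adjusted p = 0.603, edgeR). In that fit 0 of 14222 genes tested passed an adjusted p of 0.05. The share of all genes with an unadjusted p under 0.05 was not counted there, so these 2 members cannot be set beside it. Without tumor 66, 94 or 7, the log2 fold change of Etv4 was -0.81, -0.90 or -0.94, and without tumor 7 or 94 that of Etv5 was -0.30 or -0.28. The difference of Etv4 was also smaller by limma-voom (-0.74) and on log2(FPKM + 1) values (-0.34). Cholangiocyte markers were also high on average in tumors 7 and 66. Over the 7 tested of the 9 genes of that list, the mean log2 deviation from the 6 tumors was 0.73 and 0.61 in tumors 7 and 66. It was -0.33 in tumor 71, and -0.38, -0.76 and 0.12 in tumors 92, 93 and 94. Not all markers shared this order: tumor 94 was the highest for 3 of the 7, and tumors 7 and 66 for 2 each. Over all genes tested, tumors 7, 66 and 94 were the highest for 23.7%, 14.9% and 15.4%. The summed level of the 9 markers, nearly all of it Spp1, was 4118, 1037 and 346 CPM in Prmt3f/f tumors and 368, 293 and 221 CPM in Prmt3LKO tumors, and Cftr was at 1 to 16 counts. Leukocyte markers, with 11 of 12 tested, were high in tumors 7 and 66 as well, with mean deviations of 0.61 and 0.64. Unlike the cholangiocyte markers, they were also above the mean in tumor 71 (0.40), and they were at -0.80, -0.33 and -0.52 in tumors 92, 93 and 94. The part of either cell type in the values of Etv4 and Etv5 was not tested. In bulk tumors, fewer cells of a type and less RNA per cell cannot be told apart.

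Ccnd1 encodes cyclin D1, which drives cells through G1. It was at 159.9, 158.2 and 151.0 CPM in Prmt3f/f tumors and at 131.7, 143.2 and 202.9 CPM in Prmt3LKO tumors. The Prmt3f/f tumors were nearly alike and the Prmt3LKO tumors lay on both sides of them, with a log2 fold change of 0.03 ± 0.19 (SE; adjusted p = 0.996, edgeR). Tumor 94, the highest for Ccnd1, was the lowest for Dusp4, Dusp6, Spred1, Etv5 and Egr1. The locus overlaps Oraov1 on the opposite strand, which had 1292 counts in all 6 tumors together, and whether counting used the strand is not given in the sources used here.

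Myc, a transcription factor that promotes growth and ribosome production, was at 10.0, 5.46 and 8.16 CPM in Prmt3f/f tumors and at 5.72, 13.9 and 6.68 CPM in Prmt3LKO tumors. Tumor 93 was the highest, and the log2 fold change of 0.16 ± 0.38 (SE; adjusted p = 0.984, edgeR) became -0.34 without it. Egr1, an immediate-early transcription factor induced within minutes of a stimulus, was at 95.2, 94.1 and 261 CPM against 91.6, 196 and 75.4 CPM. Tumors 71 and 93, of different genotypes, were above the other tumors, and the highest tumor exceeded the lowest 3.46-fold. The log2 fold change of Egr1 was -0.31 ± 0.50 (SE; 95% interval -1.48 to 0.86; adjusted p = 0.968, edgeR), and without tumor 71 it was 0.36.

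**Figure D2:**
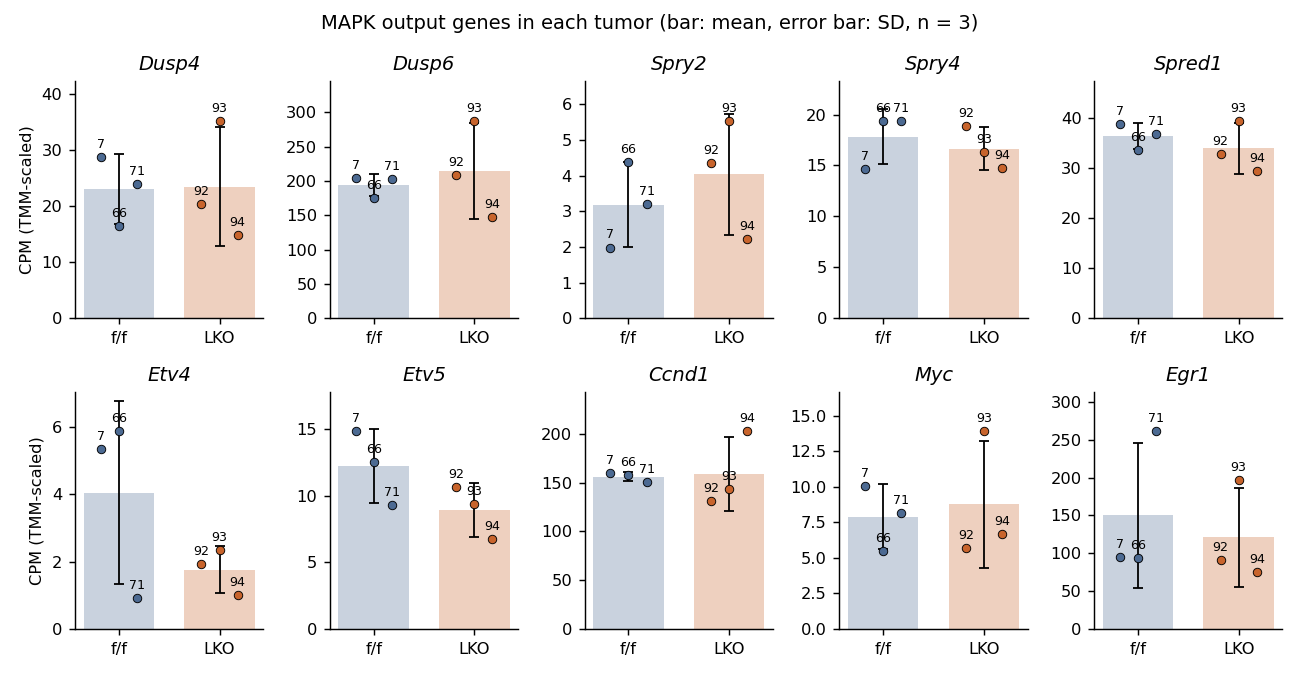
TMM-scaled CPM of each gene in the 3 Prmt3f/f (f/f, blue) and 3 Prmt3LKO (LKO, orange) tumors, each point labelled with its tumor number, with the mean (bar) and SD (error bar). The groups overlap for all 10 genes, and tumors 93 and 94 often lie at opposite ends of the Prmt3LKO group.

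The spread within a genotype was measured by the biological coefficient of variation of edgeR, which had a median of 0.274 for the members and 0.226 for all genes tested. The SD of log2 CPM over the 6 tumors, which also holds the difference between genotypes, had a median of 0.43 for the members and 0.29 for all genes tested, and 7 of 10 members were above the latter. The absolute log2 fold change had a median of 0.15 for the members and 0.18 for all genes. Etv4 varied most, at the 96.7th percentile of all genes by this SD, followed by Egr1 at the 89.3rd, Spry2 at the 82.9th and Myc at the 78.7th percentile, while Spred1 was at the 16.7th.

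Tumor 93 was the highest of the 6 for 5 members (Dusp4, Dusp6, Spry2, Spred1 and Myc), where it was the highest for 17.4% of all genes tested. Tumor 94 was the lowest for 5 members, where it was the lowest for 15.9% of all genes. The mean deviation of the 10 members from the 6 tumors was 0.13, 0.06 and 0.003 in Prmt3f/f tumors 7, 66 and 71, and -0.09, 0.33 and -0.43 in Prmt3LKO tumors 92, 93 and 94, on the log2 scale. The Prmt3LKO group therefore held both extremes.

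**Figure D3:**
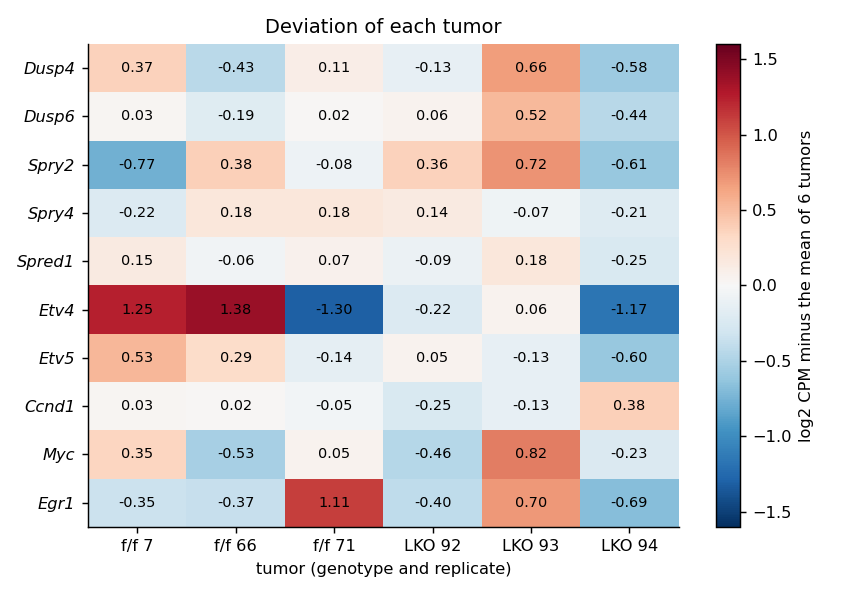
Log2 CPM of each gene in each tumor minus its mean over the 6 tumors, from blue (below) to red (above). Tumor 93 is above the mean for 7 genes and tumor 94 is below it for 9 genes, with Ccnd1 as the exception.

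Among the 45 pairs of members, the correlation of log2 CPM over the 6 tumors was positive for 30 and negative for 15. The pair with the highest r was Dusp4 and Spred1, with Pearson r = 0.934 (exact permutation p = 0.0097, adjusted p = 0.219) and Spearman rho = 0.943 (exact permutation p = 0.017, adjusted p = 0.525). Without tumors 93 and 94, the 2 farthest from the median of Dusp4, r was 0.870. Dusp4 and Dusp6 had r = 0.910 (exact permutation p = 0.0097, adjusted p = 0.219) and rho = 0.829 (exact permutation p = 0.058, adjusted p = 0.525), and r was 0.733 without the same tumors. Dusp4 and Myc had r = 0.895 (exact permutation p = 0.019, adjusted p = 0.292) and rho = 0.829 (exact permutation p = 0.058, adjusted p = 0.525), and r was 0.952 without them. After Benjamini-Hochberg adjustment over the 45 pairs, 0 pairs passed 0.05, also with log2(FPKM + 1) values. On that scale Dusp4 and Dusp6 came nearest, with r = 0.934 (exact permutation p = 0.0014, adjusted p = 0.0625). Their rho was 1.0 (exact permutation p = 0.0028, adjusted p = 0.125), and 0.0028 is the smallest exact p that rho can give with 6 tumors. No r is given for Etv4, because its values fall into separate clusters, although its pairs are among the 45 counted and adjusted. None is given within a genotype, because each has 3 tumors.

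The genes whose pattern was most like the mean standardised log2 CPM of the 10 members, among 12768 genes with a mean of at least 1 CPM, were Ambra1 (r = 0.991), Pqbp1 (0.983), Adrbk1 (0.981), Gmeb2 (0.980) and Rsf1 (0.979). Ambra1, which encodes an autophagy regulator, was at 34.3, 32.9 and 32.3 CPM in Prmt3f/f tumors and at 30.3, 37.8 and 25.4 CPM in Prmt3LKO tumors, with tumor 93 again the highest and tumor 94 the lowest. With 6 tumors as points, 111 genes had r of at least 0.9.

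To compare levels between the genes, CPM were divided by the length of the exons of each gene in kilobases (GENCODE vM21). Dusp6 had the highest level per length, with 65.3 ± 15 CPM per kb (SD, n = 6), followed by Ccnd1 (33.5 ± 5.18) and Egr1 (30.3 ± 16.8). Ccnd1 and Egr1 overlapped, with Ccnd1 above Egr1 in 4 of 6 tumors, whereas the ranges of Dusp6 and Ccnd1 did not overlap. Dusp4 (8.52 ± 2.83 CPM per kb) was below Egr1 in all 6 tumors, and Spred1 (5.19 ± 0.57) was below Dusp4 in all 6 although their ranges overlapped. The remaining levels were 3.62 ± 0.47 for Spry4, 3.06 ± 1.18 for Myc, 2.57 ± 0.69 for Etv5, 1.73 ± 0.67 for Spry2 and 0.94 ± 0.70 for Etv4, in CPM per kb, and each of these neighbors overlapped.

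The deposited FPKM gave another order, with Myc at rank 9 in place of 7 and Spry2 at rank 7 in place of 9. The length by which the FPKM of Myc was divided, as count and FPKM imply, was 9933 bases, while the whole Myc locus in the table spans 5034 bases and its exons cover 2717 bases. For Egr1 the implied length was 7520 bases, against a locus of 5162 bases and 4484 bases of exons, and it equalled the summed length of its 2 annotated transcripts. Etv4 (6088 against 3104 bases) and Etv5 (7100 against 4103 bases) were also divided by more than their exons. For 8963 well-counted genes (100 counts or more per tumor) the implied length had a median of 1.25 times the exon length. Among the 8246 of them with several annotated transcripts, it was within 1% of the summed transcript length for 4.18%. It was within 1% of the longest transcript for 5.87%, so the match of Egr1 does not give a general rule. The ratio of FPKM between tumors does not depend on this length, but a difference of log2(FPKM + 1) does, since the added 1 weighs more where FPKM is lower.

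**Figure D4:**
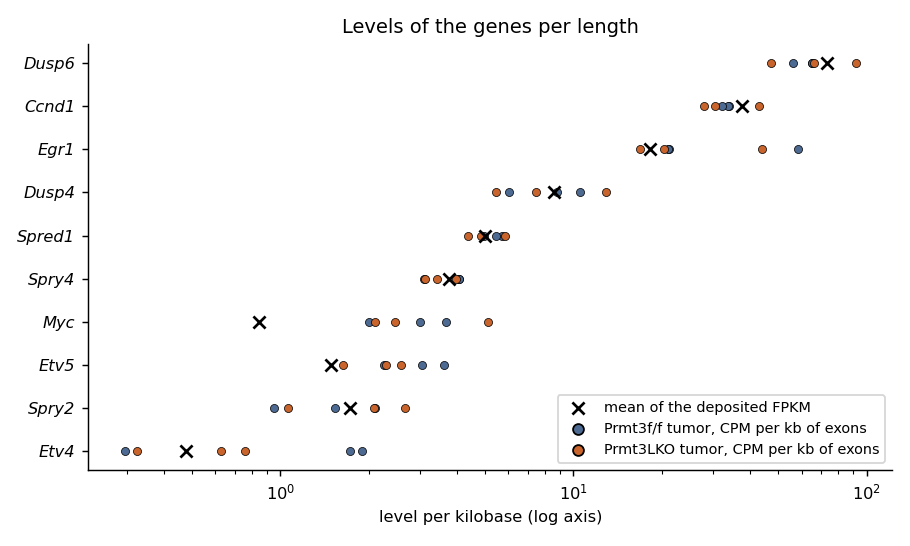
Level of each gene per kilobase of exons in each tumor (points, Prmt3f/f blue and Prmt3LKO orange) and the mean of the deposited FPKM (crosses), on a log axis. Dusp6 is the highest, and the deposited FPKM of Myc lies below all 6 of its points.

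Other genes that ERK signaling is known to induce or restrain were taken as a list of 19, of which 17 were tested. Of these, 11 were lower and 6 higher in Prmt3LKO tumors (median log2 fold change -0.24, from -0.42 without tumor 93 to 0.0064 without tumor 94), and 0 passed an adjusted p of 0.05 in edgeR. Ets1, an ETS transcription factor also expressed in lymphocytes and endothelium, was the only gene of the list with an unadjusted p under 0.05. It was at 33.0, 21.8 and 15.7 CPM in Prmt3f/f tumors and at 12.2, 9.70 and 12.1 CPM in Prmt3LKO tumors (log2 fold change -1.05 ± 0.27, adjusted p = 0.592, edgeR). Its groups did not overlap, which also held for 12.2% of all genes tested. Like the members, this list was lowest in tumor 94, with mean deviations of 0.54, 0.01 and -0.08 in Prmt3f/f tumors and -0.21, 0.36 and -0.62 in Prmt3LKO tumors.

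Leukocyte markers differed in the same direction as Ets1. All 11 of 12 listed markers that were tested were lower in Prmt3LKO tumors, 7 of them with an unadjusted p under 0.05 (edgeR), and their median log2 difference was -0.81. Over all genes, 6937 of 13892 tested were lower, and 4.37% were lower with an unadjusted p under 0.05. The summed level of the markers was 313 to 376 CPM in Prmt3f/f tumors and 201 to 277 CPM in Prmt3LKO tumors. Ly6g, a neutrophil marker, had 0 counts in every tumor but tumor 71, with 3 counts. Ptprc, the pan-leukocyte marker CD45, was at 41.0, 39.6 and 39.7 CPM against 19.1, 23.7 and 25.7 CPM (adjusted p = 0.592, edgeR). The part of leukocyte RNA in the values of Ets1 and of the immediate-early genes was not tested.

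Immediate-early genes, which respond to ERK, p38 and other signals without new protein synthesis, were listed as 26 genes, of which 24 were tested. Among them, 19 were lower and 5 higher in Prmt3LKO tumors, and their median log2 fold change was -0.21 (from -0.47 without tumor 93 to 0.03 without tumor 71), with 0 genes past an adjusted p of 0.05 in edgeR. Klf10, induced by TGF-beta, was the gene with an unadjusted p under 0.05. It was at 42.5, 89.0 and 89.9 CPM in Prmt3f/f tumors and at 36.1, 34.1 and 20.7 CPM in Prmt3LKO tumors (log2 fold change -1.29 ± 0.33, adjusted p = 0.592, edgeR). The pattern of Egr1 recurred in this list: tumors 71 and 93 were the 2 highest for 10 of 24 genes, where this held for 5.01% of all genes tested, a pair chosen after the values of Egr1 were seen. Jun was at 67.7, 68.3 and 143.8 CPM in Prmt3f/f tumors and at 49.7, 128.9 and 63.8 CPM in Prmt3LKO tumors, and Btg2 at 170, 132 and 360 CPM against 120, 377 and 158 CPM.

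The list of the core cascade, which holds both activators and inhibitors, had a median near 0. Of its 31 genes, from adaptors before Ras to ERK substrates, 19 were lower and 12 higher in Prmt3LKO tumors. The median log2 fold change was -0.06 (from -0.07 without tumor 92 to 0.0081 without tumor 94). Elk1, an ETS factor that ERK phosphorylates, was at 8.03, 8.40 and 9.56 CPM against 6.46, 6.00 and 6.53 CPM (log2 fold change -0.45 ± 0.17, adjusted p = 0.684, edgeR). The groups of Elk1 did not overlap, as for 12.2% of all genes tested. The mean deviation of the list lay between -0.07 and 0.09 in all 6 tumors.

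Among 15 growth factor receptors, Fgfr3 was higher in Prmt3LKO tumors, at 18.7, 13.6 and 12.6 CPM against 25.5, 33.3 and 23.5 CPM (log2 fold change 0.88 ± 0.21, adjusted p = 0.592, edgeR). Erbb3, the partner of other ERBB receptors, was at 121.2, 91.0 and 132.5 CPM against 90.3, 50.3 and 63.7 CPM (log2 fold change -0.75 ± 0.25, adjusted p = 0.648, edgeR). Neither had overlapping groups, which also held for 12.2% of all genes tested. Of the receptors, 10 were lower and 5 higher, with a median of -0.09 (from -0.15 without tumor 92 to -0.03 without tumor 66). Of 17 ligands, 16 were tested, 9 lower and 7 higher, with a median of -0.10 (from -0.18 without tumor 94 to 0.15 without tumor 7) and 0 genes at an unadjusted p under 0.05. The ligands with the smallest p were Igf2, at 2.2, 1.5 and 0.8 CPM against 0.3, 1.0 and 0.6 CPM (adjusted p = 0.774, edgeR), and Pdgfb, at 10.0, 10.1 and 6.3 CPM against 6.2, 7.4 and 5.4 CPM (adjusted p = 0.791, edgeR).

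Genes that act with, after or against Ccnd1 and Myc were also counted, and the lists mix these roles. Of 15 genes of the cyclin D and G1 list, 10 were lower and 5 higher, with a median log2 fold change of -0.16 (from -0.30 without tumor 71 to 0.02 without tumor 7). Cdk4, the kinase partner of cyclin D1, was at 38.1, 33.4 and 30.0 CPM against 26.1, 28.2 and 25.9 CPM (log2 fold change -0.34 ± 0.14, adjusted p = 0.745, edgeR). In the Myc network, 6 genes were lower and 5 higher (median -0.0048, from -0.13 without tumor 7 to 0.06 without tumor 71), and Mxd1, a repressor that competes with Myc for Max, was at 11.5, 9.28 and 10.9 CPM against 6.12, 7.13 and 6.53 CPM (log2 fold change -0.68 ± 0.17, adjusted p = 0.592, edgeR). Of 16 Myc target genes, mostly for ribosome production, 13 were higher and 3 lower in Prmt3LKO tumors, with a median of 0.19. Npm1 was one of the 3, at 154, 145 and 119 CPM against 96.1, 112 and 101 CPM (log2 fold change -0.43 ± 0.16, adjusted p = 0.684, edgeR). Tumor 7, with the second highest Myc level, was the lowest for 13 of these 16 target genes. Over all genes tested it was the lowest for 23.6%. Tumor 93, with the highest Myc level, was the highest for 10 of the 16, where it was the highest for 17.4% of all genes. The median of the target genes ranged from 0.03 without tumor 7 to 0.27 without tumor 66.

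A pair of tumors of different genotypes, 7 and 93, shared further features, and this pair was chosen after values were seen. They were the 2 highest tumors for 3 of 10 members (Dusp4, Spred1 and Myc), for 5 of 17 other ERK output genes and for 13 of 14 proliferation markers, where this held for 12.1% of all genes tested. Mki67, a marker of cycling cells, was at 25.5 and 20.2 CPM in tumors 7 and 93, and between 12.4 and 17.8 CPM in the others. The same tumors were the 2 lowest for 6 of 13 beta-catenin target genes and 5 of 10 hepatocyte markers, and also for 5 of 10 endothelial markers, where this held for 11.5% of all genes. Cyp2e1, a cytochrome P450 of the pericentral liver and a beta-catenin target, was at 166 and 244 CPM in tumors 7 and 93, and between 1057 and 1330 CPM in the other tumors. Glul, glutamine synthetase and a target of the same pathway, was at 51.1 and 82.0 CPM in tumors 7 and 93, and between 109.5 and 168.9 CPM elsewhere.

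The beta-catenin target genes did not separate the genotypes: 8 were lower and 5 higher in Prmt3LKO tumors, with a median of -0.10 (from -0.27 without tumor 94 to 0.05 without tumor 93). Their smallest p-values were those of Znrf3, at 7.9, 6.4 and 9.0 CPM against 6.8, 5.0 and 4.8 CPM (adjusted p = 0.769, edgeR), and Lect2, at 127.5, 48.8 and 42.1 CPM against 52.1, 30.0 and 68.5 CPM (adjusted p = 0.923, edgeR). Proliferation markers had a median of -0.20, and 0 of 14 had an unadjusted p under 0.05 in edgeR. Hepatocyte markers had a median of 0.20, stellate cell markers -0.25 and endothelial markers -0.13, each with 0 genes at an unadjusted p under 0.05. The part of these cell types in the values of the members was not tested.

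**Figure D5:**
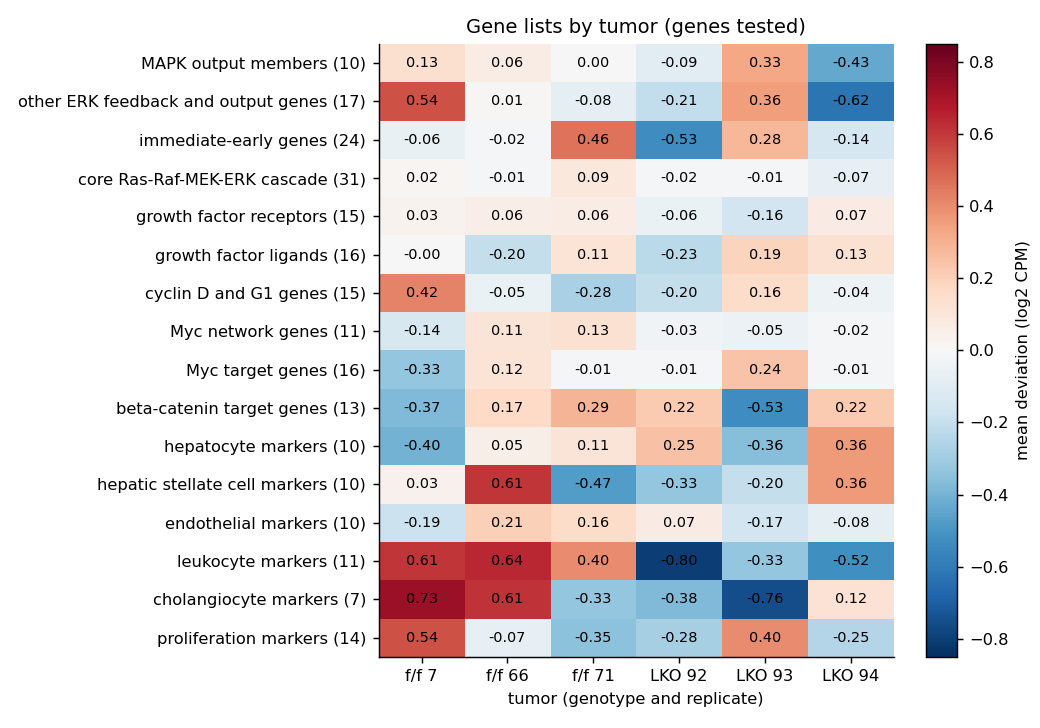
Mean log2 deviation of each gene list in each tumor from the 6 tumors, with the number of genes tested in parentheses. The members are highest in tumor 93 (0.33) and lowest in tumor 94 (-0.43), proliferation markers are high in tumors 7 and 93, and leukocyte markers are above the mean in all 3 Prmt3f/f tumors and below it in all 3 Prmt3LKO tumors.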

How the data were processed

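The authors sequenced paired-end libraries of tumor RNA, and per the labels the processing notes of the submitters name bcl2fastq 2.19, HISAT2 2.0.4, StringTie 1.3.0 and GRCm38. The counting tool, annotation and strand setting are not given in the sources used here. The deposited counts are whole numbers of reads per gene and were not normalized, and the deposited FPKM divide them by gene length and depth. Counts were filtered with filterByExpr (minimum count 10, minimum total 15), scaled by TMM and fitted over all 6 tumors by glmQLFit and glmQLFTest (edgeR 4.0.16, R 4.3.3, the quasi-likelihood test), and p-values of 13892 genes were adjusted by Benjamini-Hochberg. Log2 CPM used a prior count of 2. The fit was tested on simulated counts, in which the changed genes had larger differences than any of the members. That test does not cover differences as small as those of the members. Alternatives were DESeq2 1.42.0, limma 3.58.1 (voom, and log2(FPKM + 1)), other filters and scaling, and each tumor left out. Lists were described, not tested, and 1 marker gene is not reported here by name. Named genes were all members, the genes of each pathway list with an unadjusted p under 0.05 or else the 2 with the smallest p, and the 5 with the highest likeness. Jun, Btg2, Mki67, Cyp2e1, Glul, Ptprc, Alb, Spp1, Cftr and Ly6g were chosen after their values were seen. The members and lists were chosen with earlier results of these data known. Total counts were 18440244 to 27976598, and the number of tumors limits the precision. For a symbol with several identifiers, that with the largest total count was used.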

Additional observations from a re-analysis of the deposited data

How the results depend on the processing

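No paired analysis was possible because the replicate numbers of the genotypes (7, 66 and 71 against 92, 93 and 94) are not shared. The count of members past an adjusted p of 0.05 was 0 under all 12 alternatives, while over all genes DESeq2 called 66, the exact test of edgeR 41, and edgeR without a filter 2. With each tumor left out in turn, 0 to 2 members were lower at an unadjusted p under 0.05 (the share of all genes in these fits was not counted). The log2 fold change then ranged from -0.39 to 0.27 for Dusp4, -0.13 to 0.35 for Dusp6, -0.18 to 0.15 for Ccnd1, -0.34 to 0.39 for Myc and -0.85 to 0.36 for Egr1, crossing 0 for each, whereas the sign was kept, with sizes that moved, for Spry2 (0.04 to 0.64, lowest without tumor 93), Spry4 (-0.23 to -0.016, smallest without tumor 94), Spred1 (-0.22 to -0.0082, smallest without tumor 94), Etv4 (-1.66 to -0.81) and Etv5 (-0.61 to -0.28). Limma-voom gave -0.025 for Dusp4 and -0.0024 for Ccnd1, and log2(FPKM + 1) gave -0.043 and -0.021, so the direction of these near-zero values reversed. The median log2 fold change with a tumor left out ranged from -0.072 to 0.0081 for the core cascade, -0.18 to 0.15 for ligands and -0.13 to 0.061 for the Myc network, and the cause was not tested. With 3 tumors in each group, the 95% interval lay within a 2-fold difference either way for 5 of 10 members.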
